A study of Sus scrofa with 4 samples.

Results

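The 10 genes described here encode plasma proteins of the acute phase response and the factors that regulate it, measured in pig liver. They are the reactants CRP, SAA3, ORM1, ITIH4, LBP, HP and APCS and the regulators CEBPB, STAT3 and NFKBIA. A probe set, the group of short probes that reads 1 transcript, was taken where the deposited annotation gave it the gene's symbol, updated by gene ID, and the array design's own description named the same gene. This found 11 probe sets for the 10 genes, among 1174 probe sets for 980 genes named by such a rule in the whole table. LBP had 2 probe sets and every other gene 1.

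The clenbuterol group was 1 male and 1 female Chinese miniature pig fed clenbuterol, a β2-adrenergic agonist, at 25 mg/kg with 2 feeds daily for 4 weeks and at 50 mg/kg for another 4 weeks. The control group was 1 male and 1 female of the same breed on the same diet and schedule without the drug. Feeding began at 8 weeks of age and liver RNA was taken at 4 months, with 1 Affymetrix porcine array per pig. The design text gives each group 2 full sibs of the same sex, whereas the sample labels give each group a male and a female, and the labels were followed.

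When tissue injury or infection raises interleukin-6, interleukin-1 and tumour necrosis factor, hepatocytes change the set of proteins they secrete into plasma. Interleukin-6 acts largely through the transcription factor STAT3 and through C/EBPβ, the product of CEBPB, and interleukin-1 and tumour necrosis factor act through NF-κB, which its inhibitor IκBα, the product of NFKBIA, holds in the cytoplasm. NF-κB and STAT3 switch on reactant genes together with C/EBP factors, and NFKBIA is itself an NF-κB target. In pigs, haptoglobin, C-reactive protein, serum amyloid A and ITIH4, known there as pig-MAP, are the reactants most often measured in plasma.

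In the deposited GCRMA values clenbuterol livers had more transcript of 4 reactants, CRP, ORM1, ITIH4 and LBP, and of the regulator NFKBIA, and less of the reactant APCS. In the series value table, which holds the same arrays as linear intensities, ORM1, ITIH4 and LBP did not pass the test, and with the replicate number as a block APCS alone passed. Transcripts of the regulator CEBPB were also lower in the GCRMA values. The difference was only 0.00165 (log2), however, when the series values were scaled to the spikes. These spikes are the bioB, bioC, bioD and cre control probe sets of the array. The GCRMA rises were between 1.42-fold and 1.82-fold, and the fall of APCS was 3.47-fold, or −1.80 (log2). In the series values APCS was at −1.47 (log2), and at −1.10 when these were scaled to the spikes. The interval of HP, haptoglobin, spanned 0. STAT3 was higher in both clenbuterol pigs without passing the test. SAA3 did not pass either, and its higher values with clenbuterol were built in by the filter. By limma on the log2 GCRMA values, 7 of the 10 probe sets past the filter passed an adjusted p of 0.05, 5 higher and 2 lower, where 23.8% of all 11931 probe sets tested passed (11.4% higher and 12.4% lower). The median difference of the 10, SAA3 included, was 0.54 (log2), and that of all probe sets tested was −0.03. The calls over all probe sets split into 1365 higher and 1478 lower in the GCRMA values and into 690 higher and 636 lower in the series values. When the series values were scaled to the spikes they split into 2959 higher and 254 lower, and the median of all probe sets tested was 0.35. Below, scaling to the spikes always refers to the series values. Because whole liver was measured, fewer cells of a type and less RNA per cell cannot be told apart.

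**Figure D1:**
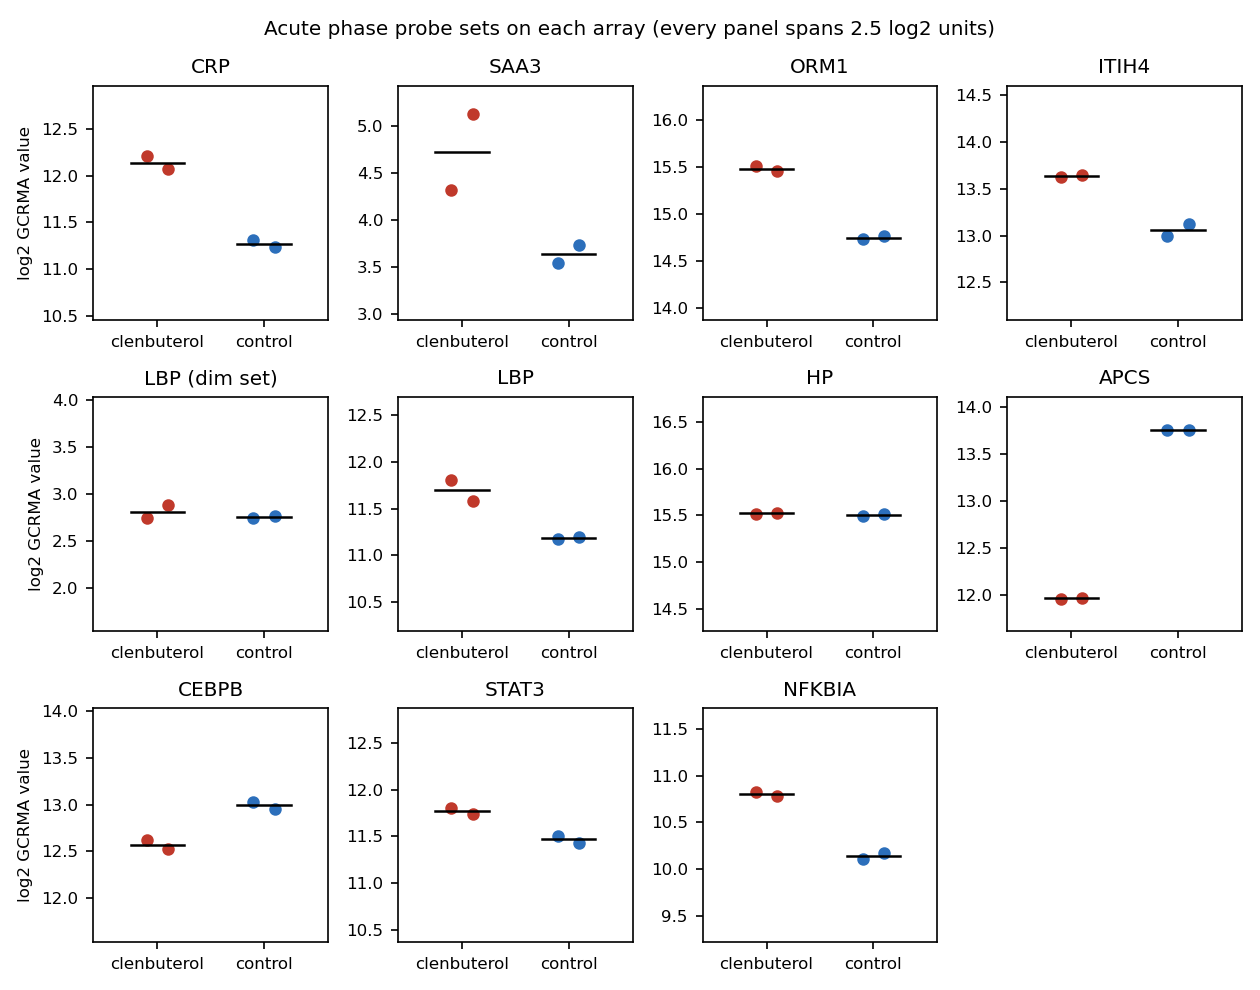
Log2 GCRMA value (vertical axis) of the 11 acute phase probe sets on the 2 clenbuterol arrays (red, left) and the 2 control arrays (blue, right), with the group mean as a bar. Both clenbuterol points lie above both control points for 7 probe sets, among them SAA3, whose direction the filter built in. They lie below them for APCS and CEBPB, though CEBPB is at 0.00165 (log2) after scaling to the spikes. Of all probe sets tested 30.8% lay above in this way and 37.3% below. The points overlap for HP and for the dim LBP probe set.

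CRP and APCS encode related plasma proteins, the pentraxins, and moved in opposite directions. CRP encodes C-reactive protein, which binds phosphocholine on damaged cells and bacteria and activates complement. Its probe set read 12.21 and 12.07 (log2 GCRMA) on the clenbuterol arrays, against 11.31 and 11.24 on the control arrays. Both clenbuterol pigs lay above both controls, and the difference was 0.86 ± 0.09 (log2, SE), or 1.82-fold with a 95% interval from 1.53 to 2.16, at an adjusted p of 0.0101 by limma. In the series value table, which labels each array by pig, CRP read 6879 in the clenbuterol male against 4294 in the control male, and 5991 in the clenbuterol female against 4172 in the control female.

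APCS encodes serum amyloid P, a pentraxin that binds amyloid fibrils and chromatin. It read 11.96 and 11.97 (log2 GCRMA) on the clenbuterol arrays, against 13.76 and 13.75 on the control arrays. The arrays of a group lay far closer together than the groups did, and the difference was −1.80 ± 0.08 (log2, SE), 3.47-fold lower with clenbuterol, at an adjusted p of 0.0029 by limma. Only 0.243% of the probe sets tested had a smaller p. The series intensities were 6660 in the clenbuterol male against 17769 in the control male, and 6466 in the clenbuterol female against 18627 in the control female. The size of the fall depended on the table, at −1.47 (log2) in the series values and −1.10 after scaling to the spikes. APCS is a major reactant in mice, whereas in humans it is nearly constant.

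Scaling to the spikes moves all log2 values of an array alike, so it leaves the gap between 2 genes as it was. The difference of CRP minus that of APCS was 2.66 (log2) in the GCRMA values. In the series values it was smaller, at 2.10 for the males and 2.05 for the females. Why the gap differed between the tables was not tested. RefSeq (Sscrofa11.1, used for names and gene order only) lists CRP and APCS on 1 chromosome with 2 unnamed genes between them, and a second gene under the symbol CRP next to the first. Whether the CRP probes also read that second gene was not tested.

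ORM1 encodes α1-acid glycoprotein, a plasma carrier of basic drugs and a modulator of inflammation. It read 15.51 and 15.46 (log2 GCRMA) on the clenbuterol arrays, against 14.73 and 14.76 on the control arrays. The groups did not overlap, and the difference was 0.74 ± 0.08 (log2, SE), 1.67-fold, at an adjusted p of 0.0101 by limma. The highest value of any probe set in the table was 15.61. The size of the rise depended on the table, since the series values differed by 0.40 (log2) between the males and by 0.35 between the females. A further probe set carries the symbol ORM1 but is described only as a transcribed locus, and was therefore not counted. It went the other way, at 8.10 and 8.25 on the clenbuterol arrays against 8.70 and 9.06 on the control arrays (−0.71 ± 0.15, log2, SE, adjusted p = 0.0373 by limma). After scaling to the spikes it was at −0.27 (adjusted p = 0.318 by limma), and the described probe set at 0.75. The rise stated here is that of the described one.

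ITIH4, listed under its older symbol IHRP, encodes the heavy chain of the inter-α-trypsin inhibitor family that is known as pig-MAP. It read 13.62 and 13.64 (log2 GCRMA) on the clenbuterol arrays, against 12.99 and 13.13 on the control arrays. The groups did not overlap, and the difference was 0.57 ± 0.09 (log2, SE), 1.49-fold, at an adjusted p of 0.0196 by limma. By the series values the males differed by 0.57 and the females by 0.37 (log2).

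LBP encodes the lipopolysaccharide-binding protein, which hands bacterial endotoxin to CD14. Its bright probe set read 11.80 and 11.58 (log2 GCRMA) on the clenbuterol arrays, against 11.17 and 11.20 on the control arrays. The clenbuterol arrays differed from each other by more than the controls did, but did not reach down to them, and the difference was 0.51 ± 0.11 (log2, SE), 1.42-fold, at an adjusted p of 0.0362 by limma. The other LBP probe set, of the same description, read 2.74 and 2.88 on the clenbuterol arrays against 2.75 and 2.77 on the control arrays. It lay below the filter of 4 on all arrays, and without a filter its difference was 0.05 (log2) with an adjusted p of 0.715 by limma. In the series values of the bright probe set the males differed by 0.35 and the females by 0.30 (log2).

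SAA3, an isoform of serum amyloid A, an apolipoprotein of the acute phase, was measured close to the filter of 4. Its probe set, titled serum amyloid A2 in the annotation and described as similar to mouse serum amyloid A 3, read 4.32 and 5.12 (log2 GCRMA) on the clenbuterol arrays, against 3.54 and 3.73 on the control arrays. It passed the filter through the clenbuterol arrays alone, so a positive difference was built into its selection. The difference was 1.09 ± 0.29 (log2, SE) with an adjusted p of 0.0599 by limma, and it was 1.49 without clenbuterol array 1 and 0.68 without clenbuterol array 2. The series intensities were 318.1 in the clenbuterol male against 189.8 in the control male, and 286.3 in the clenbuterol female against 192.2 in the control female. There the adjusted p was 0.0336 with a difference of 0.66 (log2), so the call depended on the table.

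HP encodes haptoglobin, which binds free haemoglobin. It read 15.52 and 15.53 (log2 GCRMA) on the clenbuterol arrays, against 15.49 and 15.52 on the control arrays. The groups overlapped, and the difference was 0.02 (log2) with a 95% interval from −0.19 to 0.22, at an adjusted p of 0.896 by limma. The highest value in the table was 15.61. Whether a ceiling of the array hides a difference was not tested. The series intensities were 36816 in the clenbuterol male against 33752 in the control male, and 39290 in the clenbuterol female against 39519 in the control female.

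Among the regulators, NFKBIA was the one that rose. It read 10.82 and 10.78 (log2 GCRMA) on the clenbuterol arrays, against 10.11 and 10.17 on the control arrays. The groups did not overlap, and the difference was 0.66 ± 0.08 (log2, SE), 1.59-fold, at an adjusted p of 0.0122 by limma. By the series values the males differed by 0.53 and the females by 0.50 (log2).

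CEBPB read 12.62 and 12.52 (log2 GCRMA) on the clenbuterol arrays, against 13.02 and 12.96 on the control arrays. The groups did not overlap, and the difference was −0.42 ± 0.09 (log2, SE), 1.34-fold lower with clenbuterol at an adjusted p of 0.0348 by limma, but 0.00165 when the series values were scaled to the spikes. Unscaled, the series values gave −0.37, with −0.39 between the males and −0.36 between the females.

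STAT3 read 11.81 and 11.74 (log2 GCRMA) on the clenbuterol arrays, against 11.50 and 11.43 on the control arrays. The groups did not overlap, but the difference of 0.30 ± 0.08 (log2, SE) had an adjusted p of 0.0648 by limma. Its 95% interval, before adjustment, ran from 1.06-fold to 1.44-fold. By the series values the males differed by 0.25 and the females by 0.27 (log2).

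**Figure D2:**
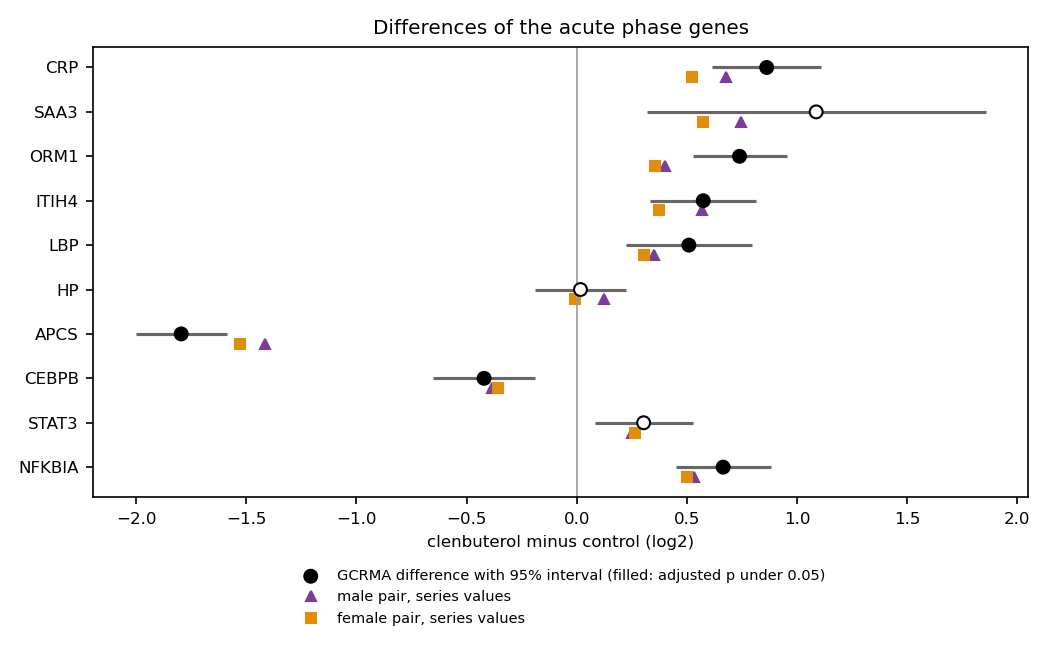
Difference, clenbuterol minus control (log2, horizontal axis), of the 10 acute phase probe sets past the filter. Circles are GCRMA differences with their 95% limma interval, filled where the adjusted p is under 0.05, and triangles and squares are the male and the female pair in the series values. Both pairs lie on the same side of 0 for 9 probe sets, among them SAA3, whose direction the filter built in. Of all probe sets tested 34.7% were higher in both pairs and 39.8% lower in both. HP is at 0.13 for the males and −0.0084 for the females. CEBPB lies below 0 here and is at 0.00165 after scaling to the spikes.

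The groups did not overlap for 9 of the 10 probe sets, 7 higher and 2 lower, and 68.1% of all probe sets tested did not overlap either (30.8% higher and 37.3% lower). For SAA3 the filter fixed this direction, and without it the count was 8 of 9, 6 higher and 2 lower. The males and the females differed in the same direction for 9 of 10, 7 higher and 2 lower, where 34.7% of all probe sets tested were higher in both pairs and 39.8% lower in both. SAA3, whose direction the filter built in, is among these 7 too. With 1 pig per sex and group, a difference in response between the sexes could not be tested. Every rise named above was smaller in the series values than in the GCRMA values, by 1.96 times for ORM1 and 1.56 times for LBP.

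The calls rested on few arrays. In the series values CRP, NFKBIA and SAA3 passed as higher and APCS as lower, where 11.1% of all probe sets tested passed (5.78% higher and 5.33% lower), and ORM1, ITIH4, LBP and CEBPB did not (adjusted p between 0.0760 and 0.129 by limma). Of these calls the direction of SAA3 was built in by the filter. With the replicate number as a block, APCS alone passed, at an adjusted p of 0.0234 by limma, and CRP was at 0.0574, where 8.83% of all probe sets tested passed (4.52% higher and 4.32% lower). Leaving out any 1 of the 4 arrays left fewer of the probe sets called than the 7 with all arrays. Without clenbuterol array 1, APCS alone of these 7 kept its call. SAA3 was also called there, although it is not among the 7 and the filter built in its direction. Over all 11931 probe sets tested the calls numbered between 579 and 1213 in these fits, against 2843 with all arrays. APCS passed each time, at adjusted p between 0.0165 and 0.0367, and ITIH4, LBP and CEBPB passed in none. CRP lost its call without clenbuterol array 1 (adjusted p = 0.0549), ORM1 lost it without clenbuterol array 1 and also without clenbuterol array 2, and NFKBIA kept it only without control array 2 (adjusted p = 0.0475 by limma).

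**Figure D3:**
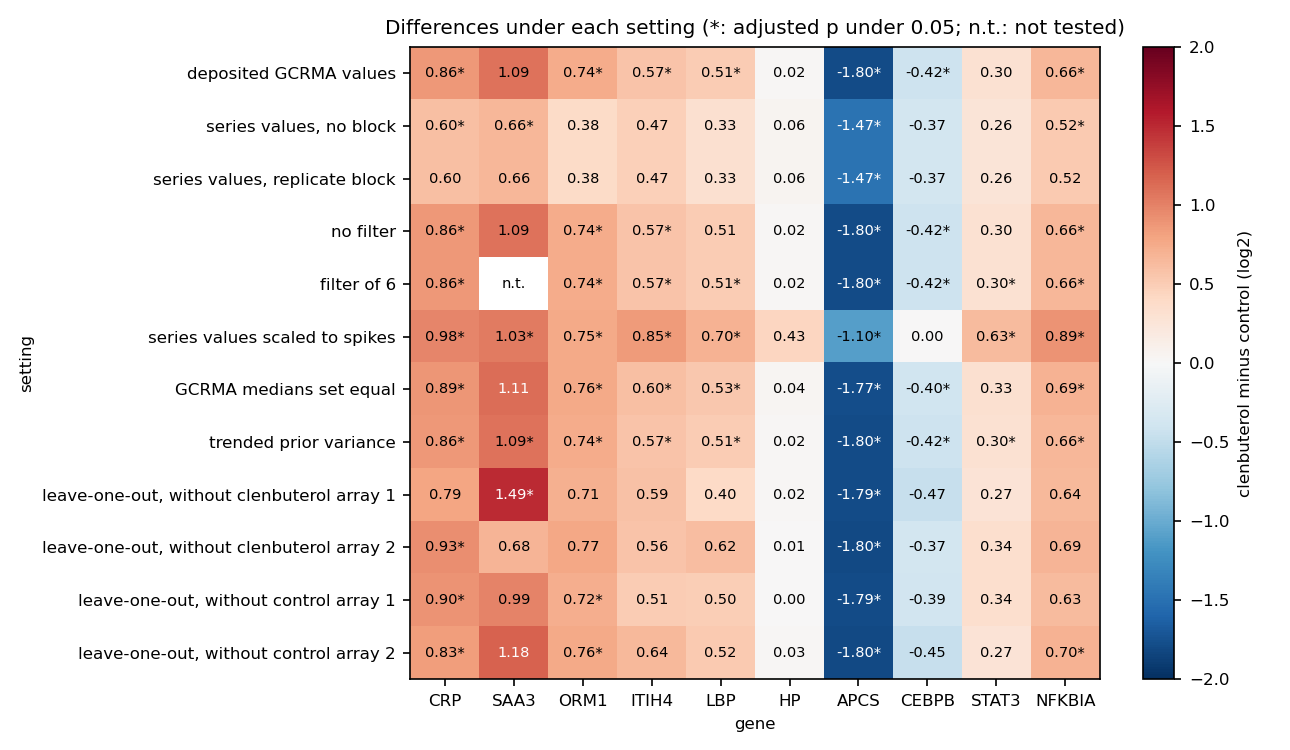
Difference, clenbuterol minus control (log2, colour and number), of the 10 probe sets (columns) under each setting (rows), with an asterisk where the adjusted p was under 0.05. APCS carries an asterisk in all rows, HP in none, and CEBPB is at 0.00 in the row scaled to the spikes.

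Genes of 5 related lists were set beside these 10, named by a like rule, each gene read from the brightest of its probe sets past the filter. In all, 12 of 47 measured genes passed, 11 higher and 1 lower, next to 26.6% of the 785 named genes (20.6% higher and 5.99% lower). The median difference of the 47 was 0.18 (log2), and that of the 785 was 0.10.

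Most genes on the list of other positive reactants, which also held ITIH1 and ITIH2 of the ITIH4 family, did not pass, as most of the 785 named genes did not. Of 16 measured 3 rose and 0 fell, beside 20.6% and 5.99% of the 785 named genes, with a median difference of 0.14 (log2). Among them HAMP, which encodes the iron regulator hepcidin, rose by 1.73 ± 0.15 (log2, SE) and complement C4A by 0.36 ± 0.08. The abundant C3, the fibrinogen chain FGG, haemopexin HPX and ITIH1 and ITIH2, which belong to the family of ITIH4, had GCRMA differences between −0.08 and 0.14 (log2), none past the threshold. The negative reactants, plasma proteins that fall in an acute phase response, showed no call in limma among 9 measured genes. At an unadjusted p under 0.05 there were 3, SERPINA6, SERPINA7 and F12, at 0.32, 0.27 and 0.30 (log2), though SERPINA6 was at −0.14 in the series values. Albumin, ALB, and transthyretin, TTR, were both at −0.02, and at 0.35 and 0.34 after scaling to the spikes, where neither passed. F12 did pass as higher after that scaling, at 0.63 (adjusted p = 0.0408 by limma).

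In the list of interleukin-1, tumour necrosis factor and NF-κB genes, 5 of 9 rose and 1, SOD2, fell, though SOD2 was at −0.06 (log2) after scaling to the spikes. CXCL2, a chemokine, passed the filter through the clenbuterol arrays alone, so its direction was built in, and 4 of the other 8 rose. VCAM1 and ICAM1, adhesion molecules that bind leukocytes, were at 1.12 ± 0.12 and 0.42 ± 0.08 (log2, SE). The cytokine IL18 was at 0.84 ± 0.09, and the chemokine CCL2 at 1.89 ± 0.09. CXCL2 averaged 8.89 ± 0.14 (log2 GCRMA, SD, n = 2) with clenbuterol and 3.85 ± 0.16 in controls, where both arrays lay below the filter of 4, so no size is given for its difference. SOD2, the mitochondrial superoxide dismutase, was at −0.47 ± 0.09. The adaptor MYD88 was at 0.47 (adjusted p = 0.0612 by limma). After scaling to the spikes MYD88 passed, at 0.63 (adjusted p = 0.0379 by limma). The endotoxin receptor TLR4 was at −0.22 (adjusted p = 0.262), and at 0.07 after scaling to the spikes.

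Of 6 measured genes of the interleukin-6 pathway 1 rose and 0 fell, beside 20.6% and 5.99% of the 785 named genes. The median difference of the 6 was 0.28 (log2). The kinases JAK1 and JAK2, which phosphorylate STAT3, were at 0.17 and 0.25 (log2), with adjusted p of 0.196 and 0.156 by limma. After scaling to the spikes JAK1 passed, at 0.62 (adjusted p = 0.0348 by limma), and JAK2 did not, at 0.65 (adjusted p = 0.05003). Of 7 liver transcription factors, JUN rose by 1.09 ± 0.20 (log2, SE) and MYC by 0.47 ± 0.11. CEBPA, which encodes C/EBPα, was at −0.30 (adjusted p = 0.579 by limma), and at 0.28 after scaling to the spikes. NR3C1, the glucocorticoid receptor, was at 0.58 (adjusted p = 0.109 by limma), and passed after scaling to the spikes, at 0.88 (adjusted p = 0.00582).

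**Figure D4:**
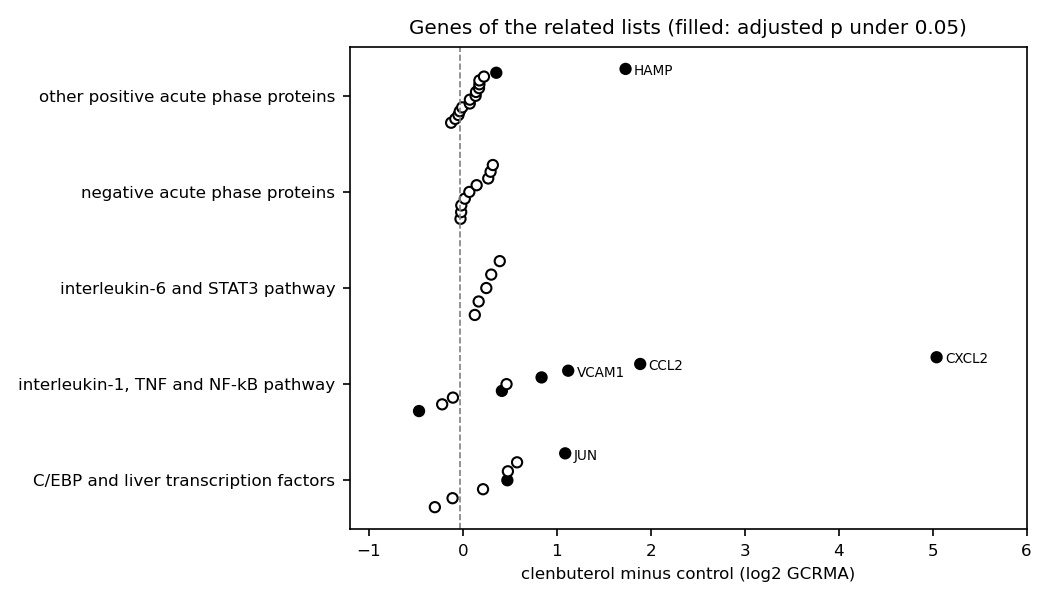
Difference, clenbuterol minus control (log2 GCRMA, horizontal axis), of the measured genes reported here from the 5 related lists, filled where the adjusted p is under 0.05. The dashed line is the median of all probe sets tested, −0.03, and genes beyond 1 are labelled. CXCL2 is drawn at its fitted value, although its control arrays lay below the filter of 4.

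Several relatives of the 10 genes have no usable symbol and were identified from the array design's description alone. They were all those describing serum amyloid A, orosomucoid, inter-α inhibitor, C/EBP or NF-κB inhibitor proteins, chosen after values had been seen. Of 12 such probe sets past the filter 4 were higher and 2 lower past the threshold in the GCRMA values, beside 11.4% and 12.4% of all probe sets tested. After scaling to the spikes 7 were higher and 0 lower past it, beside 2959 higher and 254 lower of all 11931 probe sets tested. The probe set described as weakly similar to human serum amyloid A4, the constitutive isoform, read 10.33 and 10.32 (log2 GCRMA) on the clenbuterol arrays, against 8.66 and 8.45 on the control arrays. That is a rise of 1.76 ± 0.10 (log2, SE) at an adjusted p of 0.00441 by limma.

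Inter-α heavy chain 3 (ITIH3) had 3 probe sets by description, at 1.70, 1.24 and 0.23 (log2), of which the first 2 passed and the third did not (adjusted p = 0.120 by limma). The third was the brightest, with a control mean of 13.03 (log2 GCRMA) against 7.90 and 10.67 for the first and second. Read from its brightest probe set, as the list genes were, ITIH3 did not pass. A probe set described as heavy chain 1 was at −0.40 (adjusted p = 0.0404), and at −0.01 after scaling to the spikes, while the probe set for ITIH1 that the naming rule accepted was at −0.05. C/EBPδ, a partner of C/EBPβ that is induced in the acute phase, had 3 probe sets at 0.78, 0.35 and 0.17 (log2). The first passed with an adjusted p of 0.0262 by limma, and the others had adjusted p of 0.0585 and 0.266. The brightest was the second, with a control mean of 12.33 (log2 GCRMA), against 8.66 for the first and 4.47 for the third. C/EBPγ was at −0.48 (adjusted p = 0.0250), and at 0.05 after scaling to the spikes, and the NF-κB inhibitor β at 0.10 (adjusted p = 0.480).

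Hepatocyte markers were bright on all arrays apart from APOB. The means of the others lay between 14.50 and 15.31 (log2 GCRMA), where the highest value in the table was 15.61. Whether a ceiling of the array hides a difference in them was not tested. Of 11 markers 8 were measured and none passed in limma, with 0 at an unadjusted p under 0.05. Their summed linear level was between 227391 and 228300 on the clenbuterol arrays and between 225643 and 229581 on the control arrays. Some markers of other cells passed in the GCRMA values and others did not, where 26.6% of the 785 named genes passed (20.6% higher and 5.99% lower). For Kupffer cells and macrophages 6 of 11 were measured, CD14, the receptor that LBP serves, and AIF1 rose and MRC1 fell (AIF1 with adjusted p = 0.0582 by limma and MRC1 at −0.05 after scaling to the spikes), and the summed level was between 7457 and 7567 with clenbuterol and between 6659 and 6749 in controls. For stellate cells and fibroblasts 6 of 9 were measured, and COL1A1, COL3A1, DCN and TIMP1 rose and RGS5 fell. The summed level of the 6 was between 7932 and 8222 with clenbuterol and between 5746 and 5761 in controls. COL3A1, read from its brightest probe set, carried most of this sum. Other probe sets named COL3A1 were at 0.22 and −0.14 (log2, adjusted p = 0.121 and 0.260 by limma). In the series values TIMP1 was at −0.23 for the males and 0.97 for the females. CD2 rose among 3 measured of 9 T and NK cell markers, whose sum was between 395.7 and 405.4 with clenbuterol and between 233.0 and 288.6 in controls. NPG4 was the 1 neutrophil marker measured of 10 and passed the filter through the clenbuterol arrays alone, with 31.4 and 47.1 (linear) for clenbuterol and 6.47 and 7.15 for controls. The endothelial markers PECAM1 and CLDN5 rose and VWF fell, out of 4 measured. After scaling to the spikes VWF was at −0.32 (log2, adjusted p = 0.333 by limma) and PECAM1 had an adjusted p of 0.0638. Of 3 measured cholangiocyte markers CLDN4 and GGT1 fell in the GCRMA values but were at 0.08 and 0.11 (log2) after scaling to the spikes. No B cell or red cell marker was measured past the filter, and CFD, the 1 adipocyte marker, did not pass. The part of these cells in the differences of the acute phase genes was not tested.

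Control probe sets at the 3′ and 5′ ends of pig transcripts give a gap that widens as RNA shortens. This gap was smaller on both clenbuterol arrays than on both control arrays in 7 of 10 pairs. For 1 of the GAPDH pairs it was 1.03 and 1.28 (log2 intensity) in clenbuterol pigs, against 1.68 and 1.81 in control pigs. Its part in the differences of the acute phase genes was not tested.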

How the data were processed

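The authors deposited log2 expression values of 4 arrays, 1 per pig, made with GCRMA according to the submitters' processing notes; its version is not stated there. The columns of that table show the group but no replicate number. A deposited series table holds a linear intensity per probe set and pig, with no account of its making. Labels call the pigs biological replicates, and each SD is over 2 arrays, whose number limits the precision.

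Probe sets at 4 (log2) or more on at least 2 arrays were tested, 11931 of 15383, with lmFit and eBayes of limma 3.58.1 (R 4.3.3). The model held the group only, p-values were adjusted by Benjamini-Hochberg over all probe sets tested, and the fit was tested on simulated data. Spike scaling used 27 control probe sets, those for bioB, bioC, bioD and cre. Members and lists were chosen with earlier results of these data known. Of each pathway list up to 6 genes past the threshold with the smallest p were named; the other genes named were chosen after their values were seen. The single values of 2 list genes that are in the counts are not reported here.

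Names were updated through RefSeq (Sscrofa11.1). A match of the whole symbol as a word in the array description was added to the naming rule for genes outside the 10 after first results had been seen. Without it 976 genes are named in place of 980, 46 list genes are measured in place of 47 with 12 called either way, and CD14 is not among the 5 macrophage markers then measured, of which 2 pass.

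Replicate 1 is the male and replicate 2 the female of each group. Their deviations from the group means correlated at 0.177 over probe sets in the series values, which with 2 pairs does not settle a pairing, so the block is an alternative.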

Additional observations from a re-analysis of the deposited data

Results flagged for a closer look

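HP was the 1 probe set of the 10 whose series values moved in opposite directions in the sexes, at 0.13 (log2, clenbuterol minus control) for the males and −0.0084 for the females. The difference between the sexes was not tested, since each has 1 pig per group, and 25.5% of all probe sets tested moved in opposite directions.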

How the results depend on the processing

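The number of calls depended on the table and on every array. Tested without a block, the series values gave 4 of the 10 acute phase probe sets, 7 of the 47 list genes and 1326 probe sets in all (limma, adjusted p under 0.05), against 7, 12 and 2843 in the GCRMA values. With the replicate block on the series values the numbers were 1, 7 and 1054. Leaving out 1 array at a time gave 2 to 4 acute phase probe sets, 4 to 7 list genes and 579 to 1213 probe sets, in fits with 1 fewer array in which the lone array of a group is assumed to vary like the others. The remaining settings, no filter, a filter of 6, scaling to the spikes, equal medians, a trended prior variance and, for the lists, names without the whole-word match (chosen after seeing the data), kept each of these numbers within 1.5 times. Over 109 combinations of a gene and a setting, 72 kept direction and call, 29 lost the call, 7 gained it and 1 changed direction: CEBPB was at 0.00165 (log2) in the series values scaled to the spikes, where all differences move up together. The gained calls were those of SAA3 in 4 settings and of STAT3 in 3. SAA3 could not be tested at the filter of 6. The cause of the differences between the tables was not tested.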
